A study of Mus musculus with 6 samples.

Results

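A group of 10 genes that report on or restrain Wnt/beta-catenin signalling was read on every array of a mouse mammary gland study. Members were taken by name: Axin2, Nkd1, Nkd2, Notum, Rnf43 and Apcdd1, which are targets or brakes of the pathway, and Lef1, Tcf7, Tcf7l1 and Tcf7l2, the DNA-binding factors that carry it to the genome. They made up 10 of 34964 genes and 17 of 55681 probes on the array, and a gene with several probes was represented by the probe of highest mean signal. The study, on Dll1 between mammary stem cells and their macrophages, sorted CD24+CD29hi mammary cells, called MaSC in the labels and basal cells here, from virgin C57/B6:Dll1-mCherry reporter females into an mCherry-positive (Dll1-high) and an mCherry-negative (Dll1-low) fraction, with 1 array each. It also sorted F4/80+ mammary macrophages from virgin C57/B6:cKO-Dll1 conditional knockout (KO) females and from their virgin wild type (WT) C57/B6 littermates, with 2 arrays for each genotype. Each sample was labelled with Cy5 and set against Cy3-labelled universal reference RNA from 11 mouse cell lines. The labels name neither the Cre driver nor the cells that lose Dll1, and give no age and no statement that replicates were separate animals, so p-values below measure only the spread between these samples. Levels are log2 ratios of sample over reference, comparable between arrays for 1 probe and not between probes.

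Wnt ligands that bind Frizzled and Lrp receptors stop the destruction complex from degrading beta-catenin, which then enters the nucleus and works with Tcf/Lef factors on its target genes. Several targets encode inhibitors of the same pathway, so their RNA is widely used as a read-out of its activity. In the mammary gland, Wnt signals are known to maintain the basal layer and its stem cell activity.

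Sequences are shown for the probes and promoters that the results turn on. The first pair gives the Axin2 probe with the larger basal difference (A_66_P134405, chr11:108803927-108803986, mm9) and the Tcf7l2 probe past the basal threshold (A_55_P2030160, chr19:55994029-55994088, mm9), which lies in the stretch that encodes the HMG box, the DNA-binding domain of Tcf/Lef proteins. Both are on the plus strand and are written in lower case throughout.
Axin2 probe: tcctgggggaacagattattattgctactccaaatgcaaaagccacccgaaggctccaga
Tcf7l2 probe: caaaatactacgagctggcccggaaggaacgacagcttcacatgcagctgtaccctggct
The 250 bases before a transcription start follow, from RefSeq on GRCm38.p6, all on the plus strand, for Nkd1 (chr8:88527383-88527632), the member farthest apart between the basal fractions by its main probe, and for the Lef1 (chr3:131156044-131156293) and Tcf7l2 (chr19:55895071-55895320) starts that hold a Tcf/Lef motif. Capitals mark the motif, searched on either strand with the letters CTTTGAA, the letters CTTTGAT, the letters CTTTGTA or the letters CTTTGTT.
Nkd1 promoter: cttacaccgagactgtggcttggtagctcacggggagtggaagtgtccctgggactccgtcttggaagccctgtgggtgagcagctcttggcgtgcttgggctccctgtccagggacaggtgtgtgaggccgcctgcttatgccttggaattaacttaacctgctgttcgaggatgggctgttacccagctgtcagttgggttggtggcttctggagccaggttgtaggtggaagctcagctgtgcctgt
Lef1 promoter: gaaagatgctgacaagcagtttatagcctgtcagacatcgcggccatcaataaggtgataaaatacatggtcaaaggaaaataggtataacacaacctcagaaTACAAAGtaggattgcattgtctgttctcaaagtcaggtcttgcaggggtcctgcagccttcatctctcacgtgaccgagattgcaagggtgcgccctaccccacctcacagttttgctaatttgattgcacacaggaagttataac
Tcf7l2 promoter: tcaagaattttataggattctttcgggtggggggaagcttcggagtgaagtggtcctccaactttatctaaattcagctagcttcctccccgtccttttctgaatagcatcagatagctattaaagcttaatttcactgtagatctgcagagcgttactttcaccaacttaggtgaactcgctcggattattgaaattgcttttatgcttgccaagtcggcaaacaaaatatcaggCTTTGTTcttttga
Windows of 250 bases before to 50 after a start were found for 8 of the 10 members. Of their 14 windows, 2 held a motif, 1 of 4 for Lef1 (147 bases before the start) and 1 of 2 for Tcf7l2 (14 bases before it), beside 16.9% of the 32851 windows of all genes. A match is a description of letters and not a binding site.

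Some facts of the whole series bear on what follows. Cy5 was well above background for 86.0% and 88.1% of spots on the basal arrays and for 47.4% to 71.9% on the macrophage arrays. The basal arrays shared 1 slide and the macrophage arrays another, so that a cell type effect and a slide effect cannot be told apart, and on the macrophage slide the replicates 1 lay in row 1 and the replicates 2 in row 2. Both KO arrays lay in column 4 of that slide and both WT arrays in column 3, so genotype and slide column cannot be told apart. By its main probe, Dll1 read 3.94 in Dll1-high and 3.26 in Dll1-low cells. In macrophages that probe read 0.80 and 2.25 in KO against 0.78 and 3.24 in WT. A second Dll1 probe read 0.38 in Dll1-high and 0.24 in Dll1-low cells, a difference of 0.14. It lay between -0.03 and 0.04 on the macrophage arrays. The genotypes overlapped at both probes. The labels do not say which part of Dll1 is deleted, and a probe outside that part would check nothing. WT replicate 1 stood apart: 10 macrophage markers had a median of 4.06 and 3.65 in the KO replicates, against 1.64 and 3.57 in the WT replicates, and 8 fibroblast markers read -0.51 and -0.72 in KO against 0.81 and -1.15 in WT. Endothelial markers had lower medians in both KO replicates. All 8 were above background on each macrophage array, with a median of 1.69 and 2.18 in KO against 2.77 and 3.39 in WT. Of these, 4 (Pecam1, Cdh5, Esam and Plvap) had both KO arrays below both WT arrays, beside 13.4% of all genes tested there. Each had a limma adjusted p of 0.999. The unadjusted limma p was 0.23 for Pecam1, 0.0065 for Cdh5, 0.019 for Esam and 0.13 for Plvap. Over all genes, 0.128% had an unadjusted p under 0.05. Summed Cy5 over background of the endothelial markers was 12266 and 14636 in KO against 8344 and 51186 in WT. The 8 basal markers (Krt5, Krt14 and others) had a median of 4.02 in Dll1-high and 3.84 in Dll1-low cells, which fits the label of those cells. Fewer cells of a type and less RNA per cell cannot be told apart in such bulk samples.

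In basal cells, 1 of the 10 genes was 0.5 or more apart on the log2 scale: Nkd1 was higher in Dll1-high cells. Of all 32147 genes measured there, 1.20% were that much higher and 3.25% that much lower. None of the 10 was 1 or more apart, beside 0.0933% of all genes higher and 0.103% lower by that much. The 10 genes had a median difference of 0.12, with 6 higher and 4 lower, beside -0.03 over all genes. With 1 array per fraction there is no test, and the only measure of error is the SD over repeated spots of 380 other probes, which leaves out the variation between animals, sorts and labellings. That SD was 0.114 at the median probe and 0.242 at the 95th percentile for the Dll1-high minus Dll1-low difference. By main probe, 4 genes were farther apart than that 95th percentile, Nkd1 on the higher side and Nkd2, Notum and Tcf7 on the lower, which describes these 2 arrays and is no test. Over all 32147 genes the median absolute difference was 0.14. The share of all genes past 0.242 was not counted, so the 4 cannot be set against it. All 17 probes had Cy5 well above background on both basal arrays, none was marked or saturated, and each was printed once.

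Nkd1 encodes a cytoplasmic protein that binds Dishevelled and dampens Wnt signalling. Its main probe (A_55_P1967736, chr8:91116160-91116219, mm9) had a log2 ratio of 3.92 in Dll1-high and 3.19 in Dll1-low cells, a difference of 0.73. Its second probe (A_55_P2118694) read 1.33 in Dll1-high and 0.69 in Dll1-low cells, a difference of 0.64. Both probes were therefore higher in Dll1-high cells, and Nkd1 ranked 80 from the top of the 32147 differences. The Cy5 signal of the main probe was 6533.5 in Dll1-high and 4398 in Dll1-low cells, with Cy3 at 303.5 and 346 in the same order. On the Cy5 channel alone, with the reference left out, the difference was 0.49, just under the threshold.

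The other inhibitors moved less or not in 1 direction. Axin2, a scaffold of the destruction complex and the usual marker of Wnt activity, read 0.00 in Dll1-high and -0.09 in Dll1-low cells by its main probe (A_55_P2000783, chr11:108812034-108812093, mm9), a difference of 0.09. Its other probe, printed above, read 0.10 in Dll1-high and -0.25 in Dll1-low cells, a difference of 0.34. Its Cy5 signal was lower in Dll1-high cells (153.5, against 168.5 in Dll1-low) and its Cy3 signal lower still (86, against 137), so the positive ratio difference came with a lower reference signal. Nkd2, the paralogue of Nkd1, read 1.84 in Dll1-high and 2.15 in Dll1-low cells by its main probe (A_55_P2143279, chr13:73956776-73956835, minus strand, mm9), a difference of -0.31. Its second probe (A_55_P2143282) went the other way, with 3.05 in Dll1-high and 2.63 in Dll1-low cells, and had a reference signal not well above background on any array. Notum, a secreted enzyme that removes the lipid from Wnt proteins, read 1.65 in Dll1-high and 2.04 in Dll1-low cells (A_55_P2114402, chr11:120515209-120515268, minus strand, mm9), a difference of -0.38. Notum was thus lower in Dll1-high cells, under the threshold. Rnf43, a ubiquitin ligase that clears Frizzled receptors from the cell surface, read 1.93 in Dll1-high and 1.74 in Dll1-low cells (A_55_P2079619, chr11:87548958-87549017, mm9). Apcdd1, a membrane protein that binds Wnt and its co-receptor, read 0.27 in Dll1-high and 0.09 in Dll1-low cells (A_55_P2004248). These last differences, 0.19 and 0.18, lay between the median (0.114) and the 95th percentile (0.242) of the repeated-spot SD of other probes.

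The 4 Tcf/Lef factors were within 0.5 by their main probes. Lef1, an activating partner of beta-catenin and itself a target, read -1.88 in Dll1-high and -2.04 in Dll1-low cells by its main probe (A_55_P2076871, chr3:130926200-130926259, mm9) and -2.22 in Dll1-high and -2.03 in Dll1-low cells by its second (A_51_P420400). The probes gave opposite signs, 0.16 and -0.20. In size both lay between the median (0.114) and the 95th percentile (0.242) of the repeated-spot SD of other probes. Tcf7, the factor also known as TCF1, read -0.81 in Dll1-high and -0.54 in Dll1-low cells by its main probe (A_52_P244702, chr11:52066114-52066173, minus strand, mm9) and -0.50 in Dll1-high and -0.60 in Dll1-low cells by its second (A_55_P2109633). Its probes disagreed too, with differences of -0.27 and 0.10. Tcf7l1, known mainly as a repressor of the same targets, read 1.46 in Dll1-high and 1.28 in Dll1-low cells (A_52_P387724, chr6:72576377-72576436, minus strand, mm9), a difference of 0.18. Tcf7l2, also called TCF4, read 0.78 in Dll1-high and 0.82 in Dll1-low cells by its main probe (A_55_P2143724, chr19:55817272-55817331, mm9). Its HMG box probe read 0.78 in Dll1-high and 0.28 in Dll1-low cells, a difference of 0.50, while its remaining probe (A_55_P2260094) read 0.28 in Dll1-high and 0.07 in Dll1-low cells. Of the 6 genes with several probes, 2 (Axin2 and Nkd1) had all of them in 1 direction.

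**Figure D1:**
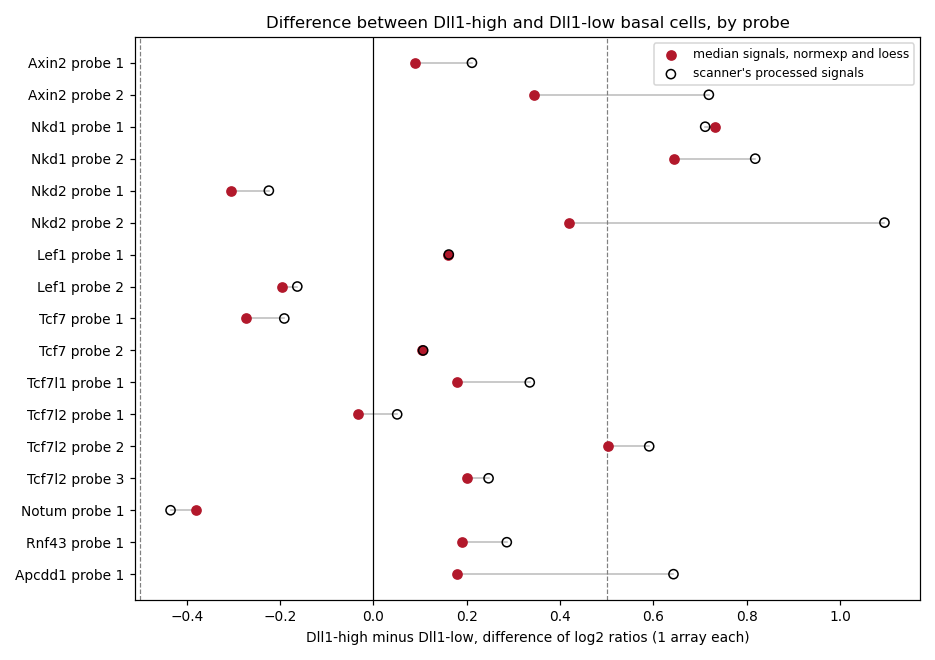
Difference of log2 ratios, Dll1-high minus Dll1-low basal cells (x axis), for each of the 17 probes (y axis, main probe of a gene first), with 1 array per fraction. Filled points use the median signals and open points the processed signals of the scanner, and dashed lines mark 0.5 either way. By the filled points 3 probes reach it, the pair of Nkd1 and 1 of Tcf7l2, and by the open points 6 do. The share of all probes that reach it was not counted.

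With the processed signals of the scanner, 2 genes were 0.5 or more higher, Nkd1 and Apcdd1 (0.64). The share of all genes that far apart with these signals is not given here. Over the alternatives, the count of all genes 0.5 or more apart ranged from 1041 to 4315, against 1433 in the main setting. Apcdd1 had a Cy5 signal of 186.5 in Dll1-high and 236 in Dll1-low cells over a Cy3 signal of 90.5 and 143 in the same order. Its higher ratio thus came with a lower signal in both channels. Markers of other cells also differed between the fractions: the medians were 0.87 in Dll1-high and 1.08 in Dll1-low cells for 11 luminal markers, -0.86 and -0.31 for 8 fibroblast markers, and 1.16 and 1.57 for 8 endothelial markers, in the same order. Every one of these markers had Cy5 above background in both fractions, and their part in the gene differences was not tested.

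In macrophages, 0 of the 9 genes that could be tested passed the test of KO against WT (limma, each adjusted p 0.999), and none of the 9 passed an unadjusted p under 0.05. Over all 25040 genes tested the adjusted share called was 0% and the unadjusted share 0.128%. The median difference of the 9 genes, KO minus WT, was 0.37, with 5 higher and 4 lower, beside -0.10 over all genes. That median was 0.81 between the replicates 1 and -0.15 between the replicates 2, and it was -0.16 without WT replicate 1. In none of the 9 did the genotype means differ by more than the larger of the replicate SDs. Apcdd1 was not tested, because its Cy5 was not well above background on any macrophage array. The part of the endothelial and fibroblast signal in these values was not tested.

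Axin2 read -0.16 and -0.06 in the KO replicates, against -1.52 and 0.32 in the WT replicates. The KO values lay between the WT values, and the genotypes differed by 0.49 (KO minus WT, SE 0.71, limma adjusted p 0.999). The difference was 1.36 between the replicates 1 and -0.37 between the replicates 2. Cy5 was above background on KO replicate 1 and WT replicate 2 alone, and the spot on KO replicate 2 was dim in both channels (57 in Cy5 and 23.5 in Cy3). The probe printed above stayed between -0.05 and 0.07 on the macrophage arrays and was above background on none of them. Without WT replicate 1, the main probe's difference was -0.43, and with all arrays it was 1.55 with the scanner's processed ratios, 1.88 with the authors' deposited table and -0.56 with Cy5 alone.

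Of the other inhibitors, Nkd1 read -0.39 and -0.05 in KO, against -1.20 and -0.06 in WT, a difference of 0.41 (SE 0.51, limma adjusted p 0.999). The replicates 2 were level with each other, and WT replicate 1 was the low array. Rnf43 read 0.02 and 0.00 in KO, against -1.19 and 0.47 in WT, a difference of 0.37 (SE 0.65, limma adjusted p 0.999). The KO values again lay between the WT values. Nkd2 read 1.42 and 1.32 in KO, against 2.82 and 1.04 in WT, a difference of -0.56 (SE 0.69, limma adjusted p 0.999). Here WT replicate 1 was the high array. The second probes of both Nkd genes were dim in macrophages. That of Nkd1 lay between -0.20 and 0.03 and was above background on no array. That of Nkd2 lay between 0.04 and 0.23 and was above background on KO replicate 1 alone. Without WT replicate 1 the differences by main probe were -0.16 for Nkd1, -0.46 for Rnf43 and 0.33 for Nkd2, each of the opposite sign to the value with it. Notum read 3.74 and -0.06 in KO, against 2.66 and 0.15 in WT, a difference of 0.44 (SE 1.61, limma adjusted p 0.999). Both replicates 1 were high and both replicates 2 near 0, so the Notum values were split by replicate number, which is also the slide row. Leaving out KO replicate 1 gave -1.47, and leaving out WT replicate 1 gave 1.69. Its Cy5 signal was 16618 and 642 in KO, against 1701 and 866 in WT, while Cy3 stayed between 1134 and 1379. Apcdd1 read -0.47 and -0.10 in KO, against -0.29 and -0.18 in WT.

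Among the factors, Tcf7 was the 1 member whose KO arrays both lay above both WT arrays, at 0.38 and 0.05 in KO, against -0.99 and 0.02 in WT. Its difference was 0.70 (SE 0.48, adjusted p 0.999 by limma). It was 1.37 between the replicates 1 and 0.02 between the replicates 2, and 6.58% of all genes had their KO arrays above both WT arrays. The second Tcf7 probe read -0.25 and -0.11 in KO, against -0.76 and -0.40 in WT, a difference of 0.40 (SE 0.32). Both probes thus had the KO arrays on the higher side, and the main probe gave 0.19 without WT replicate 1. The second probe was dim, with Cy5 of 131 and 106.5 in KO, against 106 and 98.5 in WT, over backgrounds of 63 to 68. It was not well above background on WT replicate 2. Tcf7 is known as a T cell factor, and 9 T cell markers had a median of 1.47 and 1.48 in KO, against 0.75 and 1.68 in WT, with summed Cy5 over background of 30412 and 8903 in KO, against 6252 and 12599 in WT. Of the 9 markers, 7 and 9 were above background in the KO replicates and 9 in each WT replicate. Their part in the Tcf7 values was not tested.

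Lef1 read -1.06 and -0.07 in KO, against 0.07 and -0.37 in WT, by its main probe, a difference of -0.42 (SE 0.48, limma adjusted p 0.999), and the groups overlapped. Cy5 of this probe was above background on both WT arrays and on neither KO array, so it entered the test through WT alone. The Cy5 signal was 117 and 91 in KO, against 282 and 393.5 in WT. The reference RNA at the same spots was dimmer on the KO arrays as well, with Cy3 of 138.5 and 78 in KO, against 833 and 734.5 in WT. The difference was -1.30 with the scanner's processed ratios or the authors' deposited table and -1.87 with Cy5 alone. The second Lef1 probe, above background on every array, read -0.92 and -0.40 in KO, against -0.996 and -0.53 in WT. Its difference was 0.11 (SE 0.38), of the opposite sign, and Cy3 read 362 and 198.5 in KO, against 368 and 362 in WT. Tcf7l1 read -0.69 and 0.47 in KO, against -0.12 and 0.62 in WT, a difference of -0.36 (SE 0.57, limma adjusted p 0.999). The replicates 1 were the lower array of each genotype. Tcf7l2 read 0.66 and -0.35 in KO, against 0.77 and -0.03 in WT by its main probe, a difference of -0.22 (SE 0.54, limma adjusted p 0.999). Its HMG box probe read -0.94 and -0.30 in KO, against -0.66 and 0.08 in WT, a difference of -0.34 (SE 0.45). These probes had the KO array lower within both rows. The remaining probe, which did not pass the filter, read -0.50 and 0.07 in KO, against -0.72 and -0.30 in WT, with the KO array higher within both rows.

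**Figure D2:**
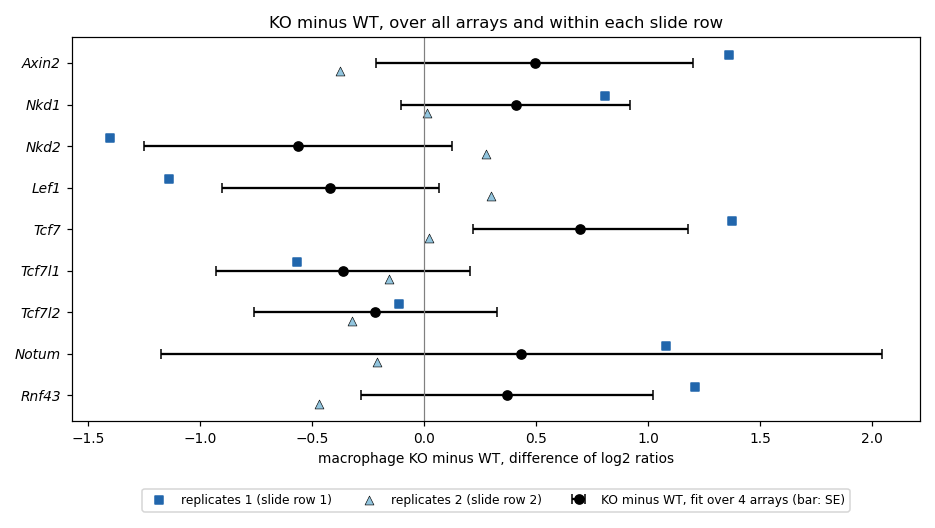
Macrophage KO minus WT, as a difference of log2 ratios (x axis), for the 9 genes tested (y axis). Black points are the fit over 4 arrays with its SE, squares the difference between the replicates 1 (slide row 1) and triangles that between the replicates 2 (slide row 2). The squares are 1 or more from 0 for 6 genes and the triangles for 0.

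Within the rows, 6 of the 9 genes differed by 1 or more between the replicates 1 and 0 between the replicates 2. The sign was the same in both rows for 4 of the 9 (Nkd1, Tcf7, Tcf7l1 and Tcf7l2), beside 48.9% of all genes. Between the replicates 2, 219 of all 25040 genes were 1 or more apart, and between the replicates 1 there were 6654. With each array centred on its median in place of loess, all 9 differences were positive with a median of 0.79, while the median of all genes moved to 0.47.

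Across cell types, 5 of the 10 genes (Nkd1, Tcf7l1, Tcf7l2, Rnf43 and Apcdd1) had both basal arrays above all 4 macrophage arrays, and 1 (Lef1) had both below them. Over the 31958 genes that were above background in either cell type and had a value on all 6 arrays, these shares were 15.8% and 19.0%, and the slide differs with the cell type. The Tcf7l2 gap was narrow, at 0.783 in Dll1-high cells against 0.772 in WT replicate 1. With the scanner's processed ratios, KO replicate 1 read 0.97 for Tcf7l2, above both basal arrays (0.77 and 0.72). In the same ratios that array read -2.40 for Lef1, below both basal arrays (-2.05 and -2.21), so neither gene was separated there. The groups were ordered Dll1-high, Dll1-low, KO and WT from the highest down for Axin2, Nkd1 and Rnf43, with macrophage means of -0.11 ± 0.07 in KO and -0.60 ± 1.30 in WT for Axin2, -0.22 ± 0.24 and -0.63 ± 0.80 for Nkd1, and 0.01 ± 0.01 and -0.36 ± 1.17 for Rnf43 in that order (SD, n = 2 each). For Tcf7l1 and Apcdd1 the order was Dll1-high, Dll1-low, WT and KO, and for Tcf7l2 it was Dll1-low, Dll1-high, WT and KO. Lef1 ran WT, KO, Dll1-high and Dll1-low, and Tcf7 ran KO, WT, Dll1-low and Dll1-high. Nkd2 ran Dll1-low, WT, Dll1-high and KO, and Notum Dll1-low, KO, Dll1-high and WT. By main probe, the macrophage arrays spanned the basal values in Nkd2, Notum, Axin2 and Tcf7. They ran from -1.52 to 0.32 for Axin2 and from -0.99 to 0.38 for Tcf7. The second Nkd2 probe did not show this overlap. It read 3.05 and 2.63 in basal cells, against 0.04 to 0.23 on the macrophage arrays. Its reference signal was not well above background on any array. The KO and WT places in each order were closer than the larger replicate SD, and the basal places had no replicates. For Apcdd1 and for the second Nkd1 probe, Cy5 was at least 1.15-fold and at least 1.83-fold brighter in basal cells than in macrophages, where neither was above background. The second Axin2 probe was likewise above background in basal cells and on no macrophage array. It gave no such bound, as its basal mean of 6.46 (log2) lay under the macrophage limit of 6.53.

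**Figure D3:**
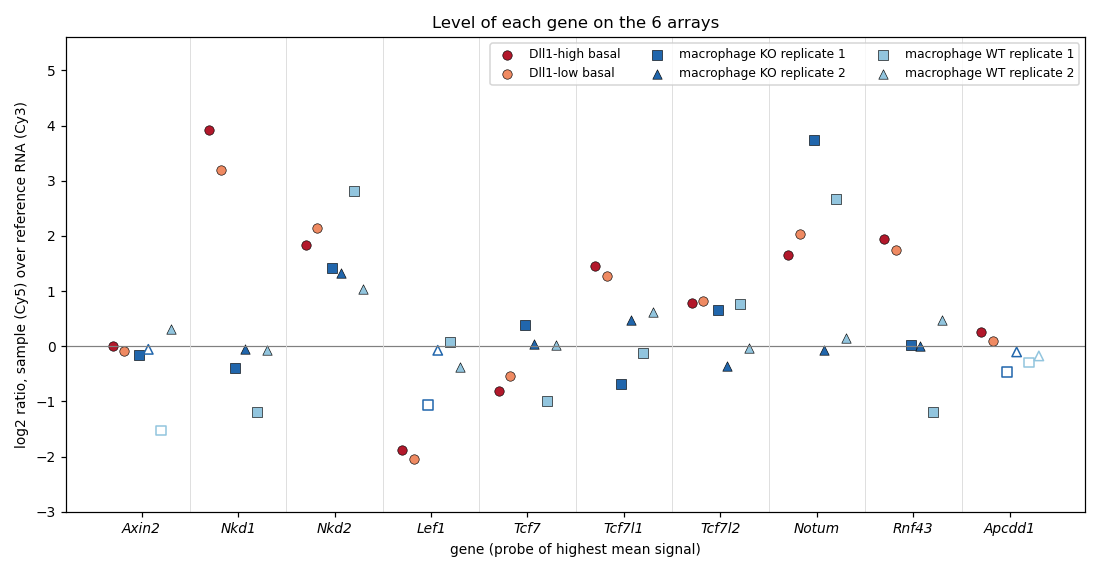
Log2 ratio of sample over reference RNA (y axis) for the main probe of each of the 10 genes (x axis) on the 6 arrays, with open symbols where Cy5 was not well above background. Nkd1 reads 3.92 and 3.19 in basal cells and below 0 on every macrophage array, and both replicates 1 of Notum (3.74 and 2.66) lie above both replicates 2.

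The genes whose log2 ratios, centred over the 6 arrays, lay nearest to those of Axin2 were Dhx29, Tspyl3 and the transcript NAP114291-1, at root mean square differences of 0.083, 0.091 and 0.10 among 17605 genes. For Lef1 they were Pdcd1, Gm1987 and Apbb3, at 0.11, 0.14 and 0.14. The Axin2 probe was itself not above background on KO replicate 2 and WT replicate 1, and the Lef1 probe on neither KO array. Part of each matched profile is therefore near background. These are descriptions over 6 arrays on 2 slides, and co-expression was not tested.

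The rest of the pathway was read from a list of 50 other genes. In basal cells, 1 was 0.5 or more higher in Dll1-high cells and 2 were that much lower, with a median difference of 0.01. The gene on the higher side was Ccn4, a secreted matricellular target of Wnt signalling, at -1.31 in Dll1-high and -2.09 in Dll1-low cells. Those on the lower side were Tbx3, a T-box factor of mammary development, at 1.70 in Dll1-high and 2.52 in Dll1-low cells, and the growth factor gene Fgf9, at -0.17 in Dll1-high and 0.45 in Dll1-low cells. Lgr5, a receptor for R-spondins and a stem cell marker in several tissues, read 4.54 in Dll1-high and 4.90 in Dll1-low cells and was above background on no macrophage array. Its difference of -0.36 ranged from -0.96 to 0.03 over the alternatives. Of the targets most often used beside Axin2, Myc differed by 0.09, Ccnd1 by -0.26, Sp5 by -0.12, Znrf3 by 0.07 and Ascl2 by 0.08. Beta-catenin itself (Ctnnb1) differed by 0.01, and the destruction complex genes Apc by -0.25, Axin1 by -0.04 and Gsk3b by 0.03. Dvl2 differed by -0.06, the co-activators Bcl9 by 0.12 and Pygo2 by 0.01, and the Groucho co-repressors Tle3 by 0.03 and Tle4 by 0.04. All of these were under the threshold.

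In macrophages, 46 of the 50 were tested and 0 passed (limma, adjusted or unadjusted), with 15 higher and 31 lower in KO and a median of -0.16, beside 10027 higher, 15013 lower and a median of -0.10 over all 25040 genes. Both KO arrays lay above both WT arrays for 6 and below them for 10, beside 6.58% and 13.4% of all genes. Of 11 destruction complex genes 1 was higher and 10 lower, with a median of -0.22, which was -0.61 between the replicates 1 and -0.13 between the replicates 2 and turned to 0.51 with median centring. Ctnnb1 read -0.71 and -0.37 in KO, against -0.43 and -0.20 in WT. The differences of the other named genes were -0.86 for Apc, -0.49 for Axin1, -0.59 for Gsk3b, -0.36 for Dvl2, 0.24 for Bcl9 and -0.05 for Pygo2, and among targets 0.40 for Myc, -0.27 for Ccnd1, 0.16 for Znrf3 and 0.23 for Ascl2. None of them passed the threshold. Tle3 read 1.25 and 1.39 in KO, against 5.46 and 1.31 in WT. WT replicate 1 alone set its difference of -2.06, which was 0.01 without that array. Tle4 differed by 0.21, and Sp5 was above background on no macrophage array.

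**Figure D4:**
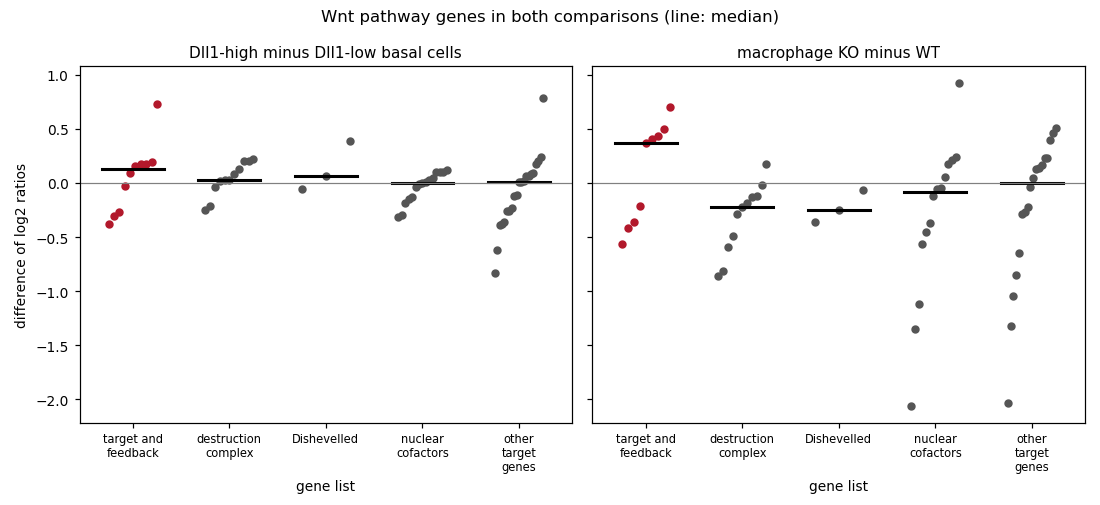
Difference of log2 ratios (y axis) for the 10 target and feedback genes (red) and the 50 other Wnt pathway genes by list (grey; x axis), with a point per gene and a line at each median. Left, Dll1-high minus Dll1-low basal cells, where the highest median is 0.12. Right, macrophage KO minus WT for genes past the filter, where the medians lie between -0.25 and 0.37.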

How the data were processed

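The data are 6 Agilent arrays of 2 colours. Per the file headers, Feature Extraction 11.0.1.1 (basal cells) and 12.0.2.2 (macrophages) gave spot and background intensity, processed intensity and the log10 ratio of Cy5 over Cy3, while the submitters' processing notes name version 11.0. The value table deposited by the authors gives log2 ratios that followed the scanner's with a correlation of 0.978 to 1.00 per array. From median signals, background was corrected with normexp (offset 50), loess was applied to the ratios of each array with R 4.3.3 (limma 3.58.1; files read with data.table, release 1.17.8), and control spots (3671 of 62976) and 170 to 500 marked spots per array were left out. Probe coordinates are mm9, per the file headers, and RefSeq (GRCm38.p6) served for names and promoters. The place of each probe in exons was not analysed here.

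Macrophage genes needed a Cy5 signal above background on 2 or more of 4 arrays and were tested with limma and Benjamini-Hochberg adjustment at 0.05 over all genes. SEs of second probes come from a fit over probes. Basal genes needed it on 1 of 2 arrays and were called 0.5 apart, with no test. A gene called at least some fold brighter was compared by Cy5 after loess and quantile normalization. The dim side was set, per array, to the lowest signal among probes above background, or to the probe's own signal where that was higher. The fit was also run on simulated data with noise independent between arrays. No result here rests on that run, and it was not used to judge the absence of calls. The named genes were all members, 15 set pathway genes, and pathway genes past a call. For Axin2 and Lef1, the 3 nearest genes above background on all 6 arrays were added. Members and lists were chosen with earlier results of these data known. Alternatives were other signals, normalization, probe and filter rules, the replicate block and leaving out arrays.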

Additional observations from a re-analysis of the deposited data

How the results depend on the processing

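Under 15 alternatives, 0 of the members tested and 0 of all genes passed the adjusted threshold in macrophages (limma). Of the 10 members 9 were tested, except for 7 with Cy5 above background on all 4 arrays, without Axin2 and Lef1, and 10 with no filter on dim probes. The replicate number as a block gave 0 calls too, with 152 genes at an unadjusted p under 0.05, against 32 without it. Same-numbered arrays deviated together (correlation 0.59 across genes), but they are 2 pairs and the labels do not say what a number shares, so they were not treated as paired. Without WT replicate 2 there were 4554 such genes, 4 of them among the 9, and a smallest adjusted p of 0.222, with the lone WT array assumed to vary like the KO arrays. Cy5 alone gave 1 of the 9 at an unadjusted p under 0.05 (limma), beside 68 of all 25040 genes. That gene was Lef1 (-1.87, SE 0.39), whose main probe was above background on neither KO array. The median of the 9 genes, 0.37, was 0.79 with median centring, 0.0155 with Cy5 alone and 0.16 over 10 genes with no filter on dim probes, and it ranged from -0.16 to 0.29 when 1 array was left out.

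Some single macrophage differences changed sign. With median centring they were 0.53 for Nkd2, 0.88 for Lef1, 0.30 for Tcf7l1, 0.46 for Tcf7l2, 0.98 for Ctnnb1, 0.51 for Axin1, 0.49 for Gsk3b, 0.47 for Dvl2, 1.14 for Pygo2 and 0.94 for Ccnd1, as the median of all genes moved from -0.10 to 0.47. With Cy5 alone they were -0.56 for Axin2, 0.0155 for Nkd2, 0.0649 for Dvl2, 0.50 for Pygo2, 0.0349 for Ccnd1 and -0.0890 for Ascl2. With the scanner's processed ratios and the authors' table Pygo2 gave 0.0434. Leaving out 1 array in turn gave -0.43 to 1.41 for Axin2, -0.16 to 0.98 for Nkd1, -1.45 to 0.33 for Nkd2, -0.91 to 0.0759 for Lef1, -0.94 to 0.22 for Tcf7l1, -0.72 to 0.29 for Tcf7l2, -1.47 to 2.34 for Notum, -0.46 to 1.20 for Rnf43, -4.14 to 0.0112 for Tle3 and -0.19 to 0.61 for Tle4. Tcf7 stayed above 0 in all 15, but these are not 15 separate checks. The replicate block and the filter rules leave its difference as it was, and the processed ratios and the authors' table gave the same 0.99. With processed ratios or the authors' table, values of members also moved by over 1.5 times for Axin2 (1.55 and 1.88), Lef1 (-1.30 in both), Rnf43 (0.73 in both), Nkd2 (-0.36 in both) and Tcf7l2 (-0.11 in both). Of the other named genes, Znrf3 moved from 0.16 to 0.82 and 1.21. Ascl2 (0.47 in both), Myc (0.70 in both), Ctnnb1 (-0.14 in both) and Ccnd1 (-0.18 in both) also moved by that much. The cause was not tested.

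In basal cells, 2 members were 0.5 or more higher with processed signals or the authors' table, 0 with Cy5 alone, where 1 (Notum, -0.55) was that much lower, and 0 at a threshold of 1. Differences under the threshold changed sign too, for Apcdd1 with Cy5 alone (-0.28), for Nkd2 (0.0572), Lef1 (-0.0176) and Tcf7l2 (0.22) with the mean of all probes, and for Tcf7l2 with processed signals or the authors' table (0.0508 in both). The count of all genes 0.5 apart was 1433 and ranged from 1041 to 4315. Dim probes, with Cy5 near background on the macrophage arrays, limit what can be seen there.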
